A study of Mus musculus with 27 samples.

Results

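The signals of 9 transcription factors that build and maintain hepatocytes, namely Hnf4a, Foxa1, Foxa2, Foxa3, Cebpa, Cebpb, Onecut1, Prox1 and Nr5a2, were examined in liver RNA of 27 mouse pups. For each named gene, the probe set of the array that names a single gene was taken, and the brightest of these where a gene has several. Each of the 9 genes had exactly 1 such probe set, out of 18820 genes read in this way. All 9 passed the intensity filter (an intensity of at least 20, or 4.32 on the log2 scale, on at least 4 arrays), as did 13279 genes in all.

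The pups were C57BL/6 offspring of dams on a Western-style high fat diet (WSD, 45% of energy as fat and 196.5 mg cholesterol per kg) or a low fat diet (LFD, 10% and 18.0 mg per kg). Dams received the diet for 6 weeks before mating, through gestation and through lactation, and were mated with males on control diet. The groups were male offspring of WSD dams (m-WS, n = 6), male offspring of LFD dams (m-LF, n = 6), female offspring of WSD dams (f-WS, n = 6) and female offspring of LFD dams (f-LF, n = 9), all 2 weeks old and without genetic modification or other treatment in the labels. Whole liver was measured, 1 Affymetrix Mouse Gene 1.1 ST array per pup, as log2 RMA signals.

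Hepatocyte identity rests on a small network of transcription factors that bind each other's promoters and the promoters and enhancers of liver genes. The FOXA proteins open chromatin early in liver development, ONECUT1 and PROX1 act in the growth and lineage choice of hepatoblasts, and HNF4A and the C/EBP proteins drive the genes of the mature hepatocyte, such as those for plasma proteins and for gluconeogenesis. Nr5a2 encodes LRH-1, a nuclear receptor that takes part in bile acid synthesis and sterol transport. At 2 weeks of age the mouse liver is moving from the foetal to the adult programme, and blood cell formation in it is coming to an end.

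Promoter sequences are shown for the member that changed with maternal diet (Nr5a2), the member that varied most between pups (Onecut1) and the only one with a FOXA motif (Foxa1). They are the 250 bases before a transcription start in RefSeq (GRCm38.p6), and capitals mark the motifs found. Nr5a2 has a pair of starts 6818 bases apart on the minus strand, with upstream windows at chr1:136960449-136960698 and chr1:136953631-136953880. The windows of Onecut1 (chr9:74861671-74861920, plus strand) and Foxa1 (chr12:57546112-57546361, minus strand) follow.
Nr5a2, upstream start: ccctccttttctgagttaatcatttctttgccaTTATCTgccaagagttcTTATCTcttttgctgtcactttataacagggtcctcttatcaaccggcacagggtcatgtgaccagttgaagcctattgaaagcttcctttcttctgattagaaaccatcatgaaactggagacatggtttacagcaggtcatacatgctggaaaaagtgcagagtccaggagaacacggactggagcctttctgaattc
Nr5a2, downstream start: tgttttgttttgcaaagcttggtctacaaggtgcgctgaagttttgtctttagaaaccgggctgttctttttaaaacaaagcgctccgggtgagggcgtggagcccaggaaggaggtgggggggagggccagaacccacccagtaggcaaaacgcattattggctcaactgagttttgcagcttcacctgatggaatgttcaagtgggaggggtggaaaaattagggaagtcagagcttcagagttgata
Onecut1: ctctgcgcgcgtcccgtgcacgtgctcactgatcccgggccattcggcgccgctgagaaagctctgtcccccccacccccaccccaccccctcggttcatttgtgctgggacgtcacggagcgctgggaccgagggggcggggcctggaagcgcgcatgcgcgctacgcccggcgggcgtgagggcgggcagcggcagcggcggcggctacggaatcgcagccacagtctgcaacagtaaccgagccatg
Foxa1: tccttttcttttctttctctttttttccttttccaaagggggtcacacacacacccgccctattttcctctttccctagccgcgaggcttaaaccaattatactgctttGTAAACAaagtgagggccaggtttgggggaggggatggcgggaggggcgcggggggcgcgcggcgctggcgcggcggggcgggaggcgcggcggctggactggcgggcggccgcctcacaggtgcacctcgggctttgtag

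All 9 members had a promoter in the table, with 14 windows between them. Both strands were searched for 6 fixed strings of letters, called motifs here, and other forms were not searched. The upstream window of Nr5a2 held on the opposite strand, at 217 and 200 bases before the start, 2 copies of AGATAA, a motif of GATA factors. It occurred in 9.99% of all 32851 windows of this length in the table. The downstream window of Nr5a2 and the window of Onecut1 held none of the 6 strings searched. Foxa1 carried the FOXA motif TGTTTAC on the opposite strand, 141 bases before its start, a motif present in 3.17% of all windows. The ONECUT motif ATTGAT (6.72% of windows) stood in promoters of Foxa2 and Hnf4a, as did the motif of GATA factors. No window of the 9 genes held the LRH-1 motif CAAGGTCA, which occurred in 1.33% of all windows. Nor did any hold the HNF4 motif CAAAGTCCA (0.384% of windows). The string TTGCNNCAA, searched for the C/EBP factors, was in none either (1.74% of all windows). It is not the usual C/EBP motif, so matches to C/EBP were not determined. A match of letters is a description and not a binding site.

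Array medians were 5.34 to 5.43 on the log2 scale. The 8 hepatocyte marker genes had a mean log2 signal of 12.95 to 13.05 in all pups, near the highest signal of any probe set (13.58). With maternal diet, 0 of the 8 changed in either sex at p 0.01 in limma (0 at p 0.05). Of all genes, 5.14% passed p 0.01 in each sex, and 13.3% in males and 14.4% in females passed p 0.05. Male pups m-WS1 and m-LF6 gave an Xist signal of 7.92 and 9.30, against 3.25 to 4.50 in the other 10 males and at least 11.67 in females, and the change of Nr5a2 is also given without them. Array names include a prefix (73 or 74) and a number of unstated meaning (39, 40 or 48 on WSD, and 37, 49 or 50 on LFD). Each number belongs to 1 maternal diet, so the number and the diet can be separated only by the spread between numbers. Pups are not tied to dams in the labels, and p-values measure the spread between these pups. Since whole liver was measured, fewer cells of a type and less RNA per cell cannot be told apart. The words rose, fell and changed are kept for genes with a p of at most 0.01 in limma, and the adjusted p over all 13279 genes is given beside them. Differences are WSD minus LFD on the log2 scale, with their SE.

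Upon maternal WSD, Nr5a2 was the only 1 of the 9 factors that changed in males, and 0 of the 9 changed in females. Nr5a2 rose by 0.21 ± 0.05 (SE) in males, or 1.15-fold, and its change in males exceeded that in females by 0.21 ± 0.07. In males 5.14% of all 13279 genes passed the same threshold, 2.79% by rising and 2.34% by falling, and in females 5.14% passed, 3.66% by rising and 1.48% by falling. The median change of the 9 factors was 0.04 in males and 0.00 in females, against 0.01 in males and 0.01 in females over all genes tested. At p 0.05 the males had 2 of the 9 (Nr5a2 and Cebpa), with 13.3% of all genes, and the females 1 (Foxa1), with 14.4%. At an adjusted p under 0.05, 60 genes passed in males (0.452%) and 39 in females (0.294%), with 0 of the 9 factors among them in either sex.

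**Figure D1:**
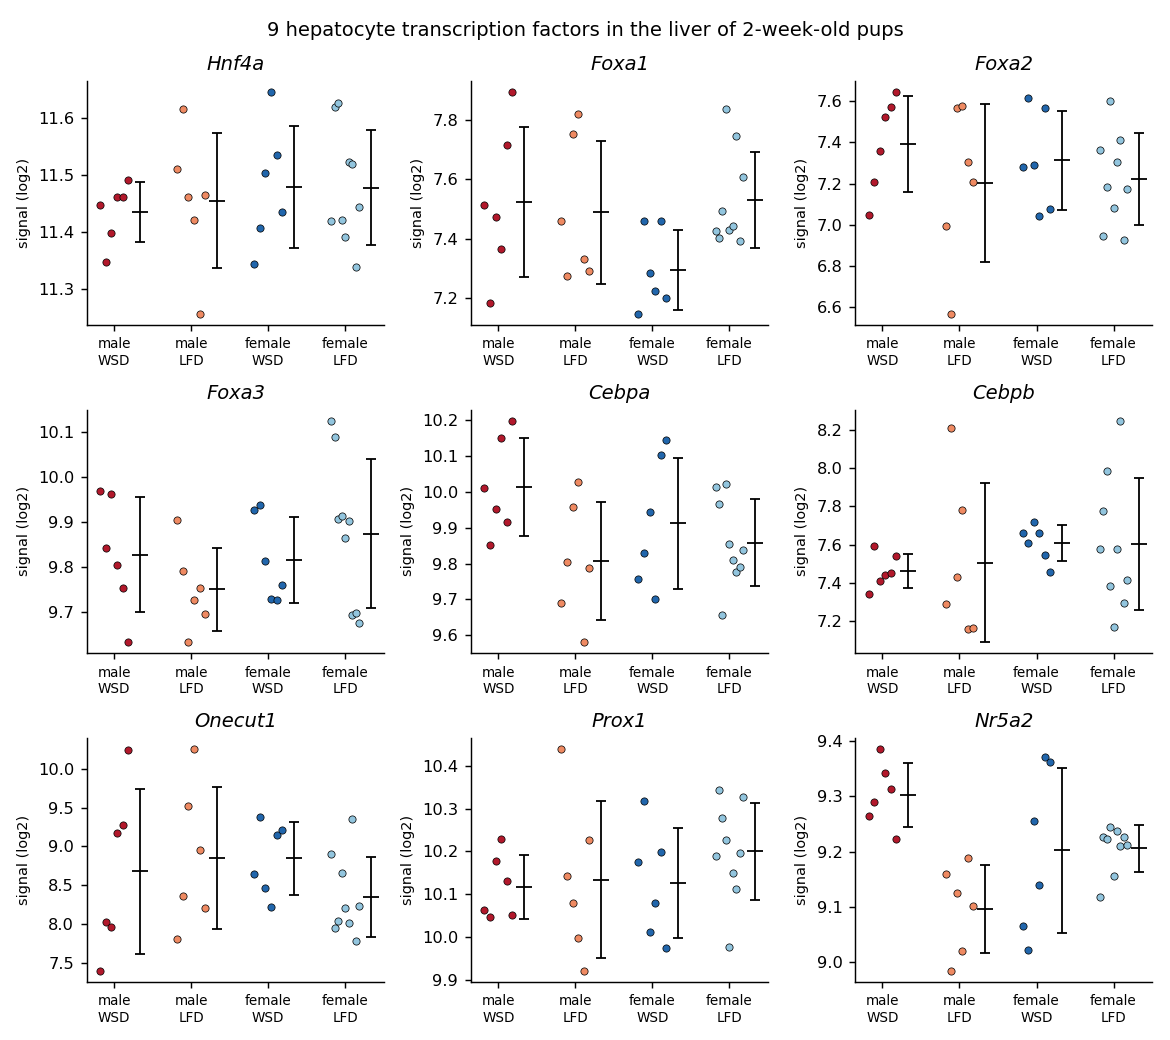
Signal on the log2 scale (vertical axes, which differ between panels) of the 9 factors in each pup (points) by sex and maternal diet, with the mean and SD of each group as bars. The m-WS pups of Nr5a2 sit between 9.22 and 9.39, above all m-LF pups (8.98 to 9.19), and Onecut1 spreads from 7.40 to 10.25 with all groups overlapping.

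Among the nuclear receptors, Nr5a2 (probe set 10358210, chromosome 1) had signals of 9.22, 9.30 and 9.39 (lowest, median and highest) in m-WS and 8.98, 9.11 and 9.19 in m-LF. Every m-WS pup lay above every m-LF pup. Such a separation with WSD above was found for 95 of the 13279 genes (0.715%). The difference of 0.21 had a 95% confidence interval of 0.10 to 0.31 (adjusted p = 0.0538 in limma), which placed Nr5a2 at rank 79 of all genes in males.

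In females, Nr5a2 had signals of 9.02, 9.20 and 9.37 in f-WS and of 9.12, 9.22 and 9.24 in f-LF. The f-WS pups thus spread on both sides of the narrow f-LF range. The difference was -0.00 ± 0.05, with an interval of -0.10 to 0.09 (adjusted p = 0.987). The difference between the sexes had an interval of 0.07 to 0.35 (adjusted p = 0.39). For that comparison 325 genes passed p 0.01 (2.45%), 1287 passed p 0.05 (9.69%) and 0 passed an adjusted p of 0.05 in limma.

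By array number, the f-WS pups of Nr5a2 fell into levels that did not overlap, with 9.02 and 9.06 for number 39, 9.14 and 9.26 for number 40, and 9.36 and 9.37 for number 48. How many of all genes separate by number in this way was not counted. The m-WS pups had 9.26 and 9.29 for number 40 and 9.22 to 9.39 for number 48, and number 39 holds females only. Without number 39, the change in females was 0.08 (adjusted p = 0.445) and the difference between the sexes 0.13 (adjusted p = 0.547, above p 0.01 before adjustment). In males the change stayed at p 0.01 or below without each pup in turn (0.18 to 0.23), without m-LF6 and m-WS1 (0.22, adjusted p = 0.0504) and with the number as a random block (0.19, adjusted p = 0.147). It missed the threshold within prefix 73 (0.18, adjusted p = 0.376) and with the pups of the same sex and number averaged (0.20, adjusted p = 0.534), and within prefix 74 it was 0.26 and passed p 0.01 (adjusted p = 0.999).

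**Figure D2:**
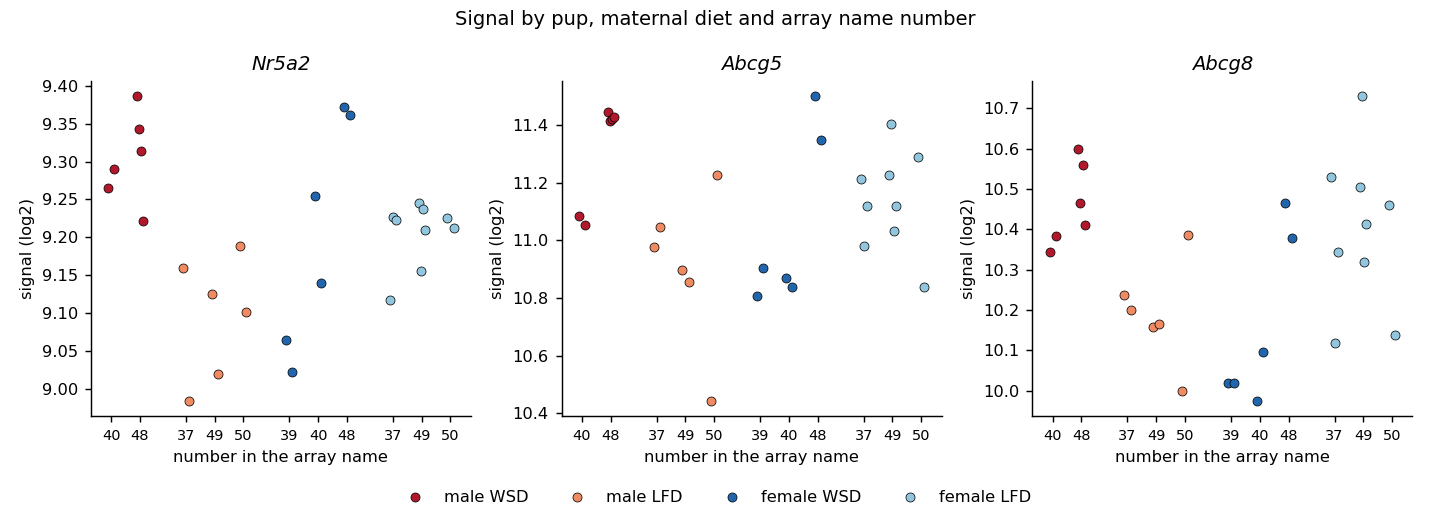
Signal on the log2 scale of Nr5a2, Abcg5 and Abcg8 in each pup (points), grouped by sex and maternal diet (colour) and by the number in the array name (horizontal axis). For Nr5a2 the f-WS pups of numbers 39, 40 and 48 lie at 9.02 to 9.06, 9.14 to 9.26 and 9.36 to 9.37, while the m-WS pups of numbers 40 and 48 overlap.

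Hnf4a (probe set 10478389, chromosome 2), the receptor that drives much of the mature hepatocyte programme, was among the steadiest of the 9. Its signals were 11.35, 11.46 and 11.49 in m-WS and 11.26, 11.46 and 11.62 in m-LF. In females they were 11.34, 11.47 and 11.65 in f-WS and 11.34, 11.44 and 11.63 in f-LF. The groups overlapped almost fully, with a difference of -0.02 ± 0.05 in males (interval -0.13 to 0.09, adjusted p = 0.922) and 0.00 ± 0.05 in females (interval -0.10 to 0.10, adjusted p = 0.997).

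The FOXA factors, which bind closed chromatin in the early liver, did not pass p 0.01 in either sex. Foxa1 had signals of 7.18, 7.49 and 7.89 in m-WS and 7.27, 7.39 and 7.82 in m-LF. In females it had 7.15, 7.25 and 7.46 in f-WS and 7.39, 7.44 and 7.84 in f-LF, so that 4 of the 6 f-WS pups lay below all f-LF pups. The difference was 0.03 ± 0.11 in males (adjusted p = 0.936) and -0.23 ± 0.10 in females (interval -0.44 to -0.03, adjusted p = 0.263). With each sex fitted alone the change in females passed p 0.01, whereas it was -0.17 without number 49 (adjusted p = 0.75) and -0.22 with pups of the same sex and number averaged (adjusted p = 0.668). The difference between the sexes in this change was 0.27 ± 0.15 (adjusted p = 0.56).

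Foxa2 had signals of 7.05, 7.44 and 7.64 in m-WS and 6.57, 7.26 and 7.58 in m-LF. Its f-WS pups had 7.04, 7.29 and 7.62 and its f-LF pups 6.93, 7.18 and 7.60. The differences of 0.19 ± 0.14 in males (adjusted p = 0.629) and 0.09 ± 0.13 in females (adjusted p = 0.81) were within the spread between pups. Foxa3, the last of the family to be switched on in liver development, had 9.63, 9.82 and 9.97 in m-WS and 9.63, 9.74 and 9.90 in m-LF, a difference of 0.08 ± 0.07 (adjusted p = 0.708). In f-WS it had 9.73, 9.79 and 9.94 and in f-LF 9.68, 9.90 and 10.13, a difference of -0.06 ± 0.06 (adjusted p = 0.737).

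Of the C/EBP factors, Cebpa, which drives gluconeogenic and urea cycle genes and restrains proliferation, came closest to a change in males. Its signals were 9.85, 9.98 and 10.20 in m-WS and 9.58, 9.80 and 10.03 in m-LF, so that the ranges overlapped in part. The difference was 0.20 ± 0.08 (interval 0.04 to 0.37, adjusted p = 0.239). It passed p 0.01 without m-LF3, m-LF4 or m-WS2 and without number 49 (0.30), but was 0.12 without number 48 (adjusted p = 0.735), 0.14 without number 50 (adjusted p = 0.444) and 0.14 with array weights (adjusted p = 0.392). In females Cebpa had 9.70, 9.89 and 10.14 in f-WS and 9.66, 9.84 and 10.02 in f-LF, a difference of 0.05 ± 0.07 (adjusted p = 0.793). The sexes differed in this change by 0.15 ± 0.11 (adjusted p = 0.683).

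Cebpb, which responds to cytokines and hormones and serves in the acute phase, varied more among LFD than among WSD pups. It had 7.34, 7.45 and 7.59 in m-WS and 7.16, 7.36 and 8.21 in m-LF, the highest being m-LF2. In females it had 7.45, 7.64 and 7.72 in f-WS and 7.17, 7.58 and 8.25 in f-LF, the highest being f-LF7. The SD was 0.09 in m-WS against 0.42 in m-LF and 0.09 in f-WS against 0.35 in f-LF, and the difference of the spreads was not tested. The means differed by -0.04 ± 0.15 in males (adjusted p = 0.951) and 0.01 ± 0.14 in females (adjusted p = 0.993).

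Onecut1 (probe set 10587082, chromosome 9), the factor that steers hepatoblasts and bile duct formation, had signals of 7.40, 8.60 and 10.24 in m-WS and 7.81, 8.65 and 10.25 in m-LF. In females it had 8.23, 8.89 and 9.38 in f-WS and 7.79, 8.21 and 9.36 in f-LF. The range over all pups spanned 7.20-fold, and both extremes were male. The differences of -0.17 ± 0.39 in males (interval -0.98 to 0.64, adjusted p = 0.907) and 0.50 ± 0.36 in females (interval -0.24 to 1.23, adjusted p = 0.571) have intervals that leave room for changes of either sign. The difference between the sexes was -0.67 ± 0.53 (adjusted p = 0.711). Without number 48 the change in males was -1.13 (adjusted p = 0.429) and the difference between the sexes -1.46 (adjusted p = 0.316), while within prefix 74 they were 0.46 (adjusted p = 0.999) and -0.0014. By number, m-WS pups had 7.40 and 8.03 for number 40 and 7.96 to 10.24 for number 48. The m-LF pups had 9.53 and 10.25 for number 49, above the 7.81 and 8.36 of number 37 and the 8.21 and 8.95 of number 50.

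Prox1, which acts in hepatoblast migration and, later, as a partner of HNF4A and LRH-1, had 10.05, 10.10 and 10.23 in m-WS and 9.92, 10.11 and 10.44 in m-LF. It had 9.97, 10.13 and 10.32 in f-WS and 9.98, 10.20 and 10.34 in f-LF. The differences were -0.02 ± 0.07 in males (adjusted p = 0.956) and -0.07 ± 0.06 in females (adjusted p = 0.659).

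**Figure D3:**
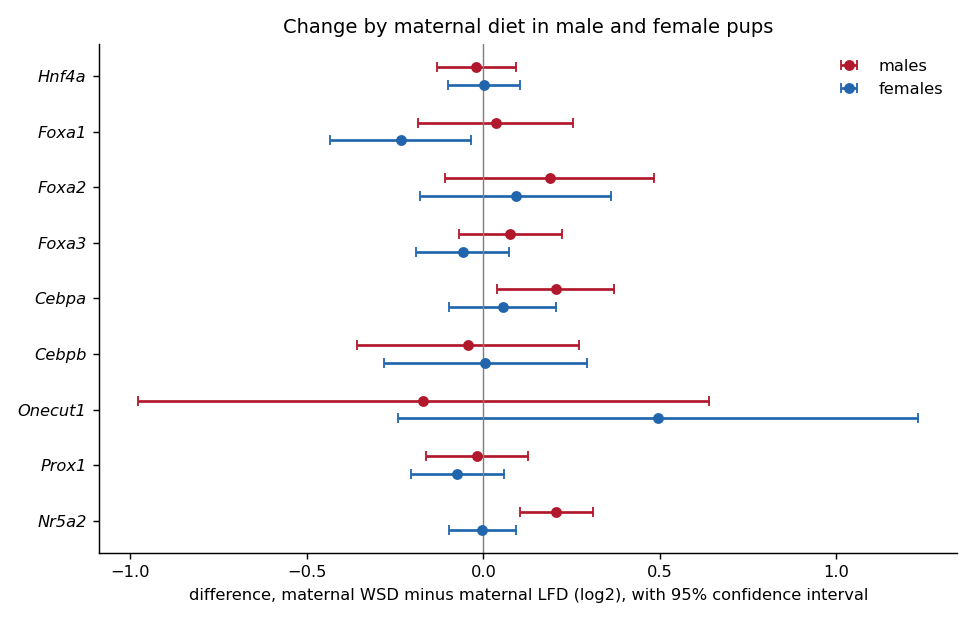
Difference between maternal WSD and maternal LFD on the log2 scale (horizontal axis) for each factor in males and in females, with the 95% confidence interval from limma. The interval of Nr5a2 in males runs from 0.10 to 0.31 and that in females from -0.10 to 0.09, and the intervals of Onecut1 are the widest.

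Between the sexes, 0 of the 9 factors differed at p 0.01 on maternal WSD, where 3.25% of all genes did, and 0 of the 9 on maternal LFD, where 1.34% did. At p 0.05 there was 1 factor on WSD (Foxa1), with 10.3% of all genes, and 1 on LFD (Nr5a2), with 6.8%, in limma. The count at p 0.01 was 1 on LFD without number 39 or 48, and 0 to 1 on WSD without each pup in turn. On WSD, Foxa1 was at 7.52 in males and 7.29 in females on average, a difference of 0.23 ± 0.11 (adjusted p = 0.464). On LFD, Nr5a2 was at 9.10 in males and 9.21 in females, a difference of -0.11 ± 0.05 (adjusted p = 0.721), and on WSD it was at 9.30 in males and 9.20 in females, 0.10 ± 0.05 apart (adjusted p = 0.495). These comparisons use the same pups as those by diet.

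The 9 factors differed in how much they varied between pups of a group. The within-group SD of Onecut1 was 0.75, at the 99.9th percentile of the 13279 genes, and those of Cebpb (0.29) and Foxa2 (0.27) were at the 96.7th and 95.9th. Foxa1 had an SD of 0.20, Cebpa of 0.15, and Foxa3 and Prox1 of 0.13 each, while the median over all genes was 0.12. Hnf4a (0.10) and Nr5a2 (0.09) were at the 30.5th and 21.1st percentile. The factor with the change in males was thus the steadiest of the 9, and the SD of Onecut1 sets the width of its intervals.

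Deviations from the group means were compared between the 36 pairs of factors over the 27 pups. In 3 pairs they correlated at an adjusted p under 0.05 (permutation test within groups, 100000 resamples, 2-sided), all positively and all among Onecut1, Foxa1 and Foxa2. Foxa2 and Onecut1 had a Pearson r of 0.742 (adjusted p = 0.00252) and a Spearman rho of 0.766 (adjusted p = 0.00144), and r was 0.803 without the 2 pups farthest from the median of Foxa2. Foxa1 and Foxa2 had an r of 0.713 (adjusted p = 0.00342) and a rho of 0.596 (adjusted p = 0.0509), with an r of 0.667 without the 2 pups farthest from the median of Foxa1. Foxa1 and Onecut1 had an r of 0.694 (adjusted p = 0.0133) and a rho of 0.535 (adjusted p = 0.171), with an r of 0.547 without the same 2 pups, m-LF4 and m-WS6.

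Within prefix 73 these pairs had an r of 0.821, 0.538 and 0.471, and within prefix 74 an r of 0.610, 0.748 and 0.877. Within pups of the same sex and number they had an r of 0.476, 0.644 and 0.489. The count at an adjusted p under 0.05 was 0 within prefix 73, 1 within prefix 74 and 0 within sex and number. Foxa3, the third FOXA gene, had an r of -0.355 with Foxa1 and -0.200 with Foxa2 (adjusted p = 0.311 and 0.646). Nr5a2 correlated with none of the other 8 factors at an adjusted p under 0.05, its largest r in size being -0.310 with Cebpb (adjusted p = 0.211).

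**Figure D4:**
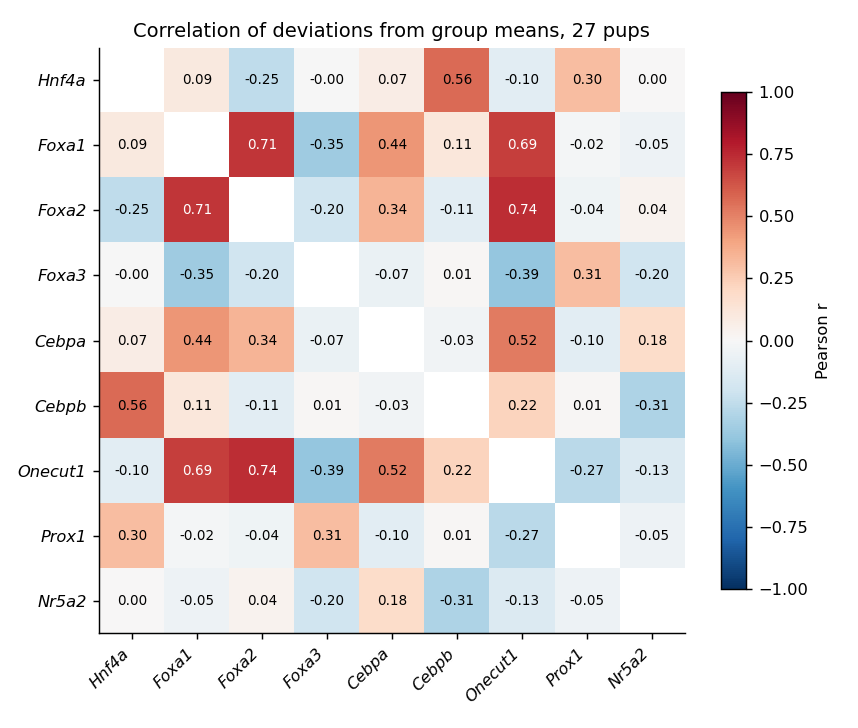
Pearson r between the deviations of the 9 factors from their group means over 27 pups (colour and number in each cell, from -1 to 1). The block of Foxa1, Foxa2 and Onecut1 has values of 0.694 to 0.742.

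The genes whose deviations most resembled those of a factor are given as a description over the 27 pups, without a test, since they were picked as the highest of all genes tested and share arrays with it. Onecut1 was most like Cish, a suppressor of cytokine signalling (r = 0.933), Slc25a30 (0.860) and Myc (0.846). In m-LF4 and m-WS6, which were highest for Onecut1 (10.25 and 10.24), Cish was at 8.93 in each, and in m-WS1, the lowest for Onecut1 (7.40), Cish was at 6.48. The r with Cish was 0.974 in males and 0.793 in females, 0.929 and 0.962 within prefixes 73 and 74, 0.867 within pups of the same sex and number, and 0.899 without m-LF4 and m-WS6. Foxa2 was most like Phlda1 (0.887), Foxq1 (0.875) and Cish (0.779), and Foxa1 most like Nmnat1 (0.797), Foxa2 (0.713) and Phlda1 (0.712).

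**Figure D5:**
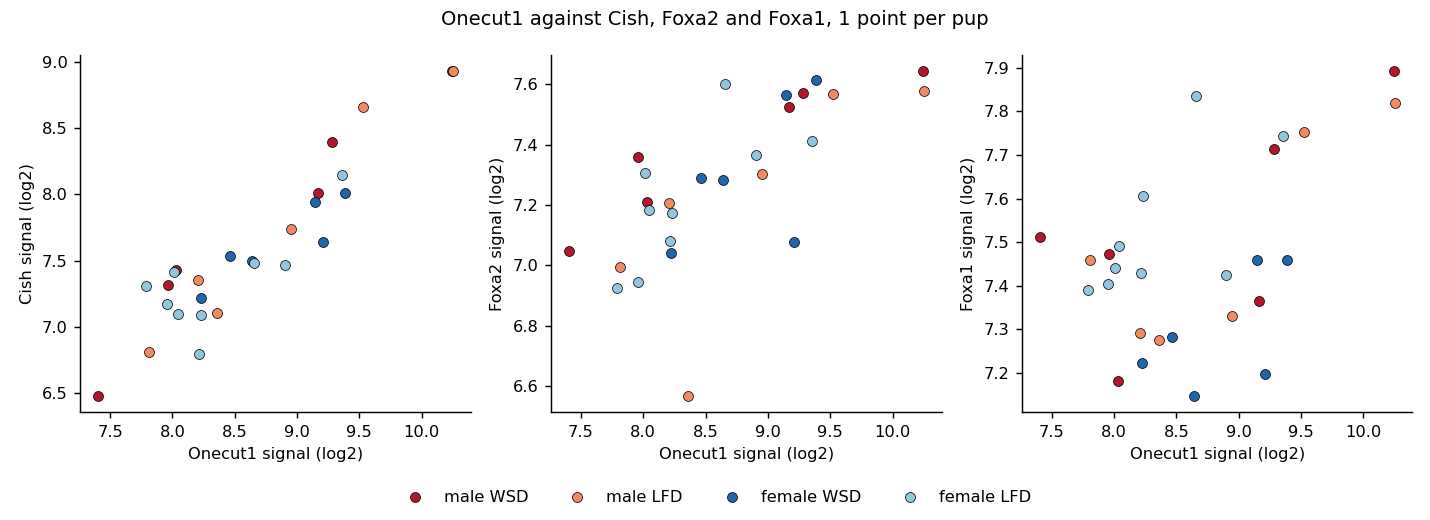
Signal on the log2 scale of Cish, Foxa2 and Foxa1 (vertical axes) against that of Onecut1 (horizontal axes), 1 point per pup, coloured by sex and maternal diet. Pups of all groups lie along the same course for Cish, with m-LF4 and m-WS6 at the upper end (Onecut1 at 10.25 and 10.24) and m-WS1 at the lower end (7.40).

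Cebpb was most like Tle1 (r = 0.883), Tnfrsf1b (0.866) and St3gal5 (0.860), which held without f-LF7 and m-LF2 (0.820, 0.814 and 0.813). Hnf4a was most like Ap3m1 (0.843), Abca2 (0.835) and Shld2 (0.834), and Prox1 most like Cutc (0.813), Slc25a46 (0.786) and Uhrf1bp1l (0.778). Foxa3 was most like H2-T23 (0.784), Thnsl2 (0.755) and Wtip (0.748), and Cebpa most like Gpr146 (0.740), F3 (0.729) and Gnmt (0.726). Nr5a2 was most like H2bc4 (0.730), Gpt (0.730) and E2f5 (0.716), and its r with Gpt was 0.225 in males and 0.868 in females.

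Of 39 other transcription factors of the liver, 34 had a single-gene probe set above the intensity filter. In males 1 of the 34 rose and 0 fell, and in females 0 rose and 1 fell, where 5.14% of all genes changed in each sex, at a median change of 0.00 in males and -0.02 in females. Tef, a clock-controlled bZIP factor, had 7.35, 7.40 and 7.44 in m-WS and 6.98, 7.19 and 7.29 in m-LF, without overlap. It rose by 0.22 ± 0.06 in males (adjusted p = 0.102), was at -0.06 ± 0.06 in females, and the sexes differed by 0.28 ± 0.09 (adjusted p = 0.385).

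Mlxipl, which encodes the carbohydrate-responsive factor ChREBP, had 9.62, 9.75 and 9.98 in f-WS and 9.94, 9.99 and 10.02 in f-LF. It fell by 0.20 in females (SE 0.04, adjusted p = 0.0254) and had a difference of -0.02 ± 0.04 in males, and the sexes differed by 0.18 ± 0.06 (adjusted p = 0.39). Gata6, a zinc finger factor of early endoderm, passed p 0.01 only for the difference between the sexes, at 0.38 ± 0.13 (adjusted p = 0.397), with 0.18 ± 0.10 in males and -0.20 ± 0.09 in females.

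Known target genes of the factors were taken from 5 lists that overlap, 32 genes in all with 28 tested. In males 2 of the 28 rose and 2 fell, where 2.79% of all genes rose and 2.34% fell, and in females 0 rose and 2 fell, where 3.66% rose and 1.48% fell. The count in females was 0 with the array number as a random block and with pups of the same sex and number averaged, and that in males was 3 with the random block, 1 with pups averaged and 0 within prefix 74. The lists were made with earlier results of these data in view and are descriptions. Of 6 LRH-1 targets tested, 2 rose in males and 1 fell in females, at a median of 0.16 in males and -0.05 in females, against 0.01 in males and 0.01 in females over all genes. Abcg5 and Abcg8, neighbouring genes whose products form 1 sterol transporter, accounted for these calls.

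Abcg5 had 11.05, 11.42 and 11.44 in m-WS and 10.44, 10.94 and 11.23 in m-LF, where only m-LF6 (11.23) reached the m-WS range. It rose by 0.40 ± 0.12 in males (adjusted p = 0.112). In f-WS it had 10.81, 10.89 and 11.50 and in f-LF 10.84, 11.12 and 11.40, a difference of -0.09 ± 0.11 (adjusted p = 0.764). The sexes differed by 0.49 ± 0.16 (adjusted p = 0.395).

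Abcg8 had 10.34, 10.44 and 10.60 in m-WS and 10.00, 10.18 and 10.39 in m-LF, where only m-LF6 (10.39) reached the m-WS range. Abcg8 rose by 0.27 ± 0.09 in males (adjusted p = 0.157). In f-WS it had 9.97, 10.06 and 10.47 and in f-LF 10.12, 10.41 and 10.73, and it fell by 0.24 in females (SE 0.08, adjusted p = 0.174), a call that was lost with the number as a random block. The sexes differed by 0.51 ± 0.12 (adjusted p = 0.271). As with Nr5a2, the f-WS pups of number 48 were the highest of that group for both transporter genes. The other 4 LRH-1 targets did not pass p 0.01 in either sex. In males Cyp8b1, the enzyme of cholic acid synthesis, was at 0.33 ± 0.13 (adjusted p = 0.239), Cyp7a1, the rate-limiting enzyme of bile acid synthesis, at 0.05 ± 0.16, Nr0b2 (SHP), a corepressor, at -0.09 ± 0.22 and Scarb1, the HDL receptor, at -0.00 ± 0.05.

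Of 11 HNF4A targets tested, 1 fell in males and 1 in females, where 2.34% of all genes fell in males and 1.48% in females. Their medians were -0.03 in males and -0.01 in females. Mttp, which loads lipid onto apolipoprotein B, had 10.26, 10.42 and 10.49 in m-WS and 10.36, 10.60 and 10.80 in m-LF. Of the m-LF pups only m-LF6 (10.36) reached the m-WS range. Mttp fell by 0.20 in males (SE 0.06, adjusted p = 0.101). In females its difference was 0.02 ± 0.05, and the sexes differed by -0.22 ± 0.08 (adjusted p = 0.397). Apoa2, an apolipoprotein of HDL, had 12.73, 12.82 and 12.84 in f-WS and 12.80, 12.90 and 12.95 in f-LF, and fell by 0.09 in females (SE 0.03, adjusted p = 0.172), a call also lost with the random block.

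Of 7 FOXA targets, 1 fell in males and 0 changed in females in limma, where 2.34% of all genes fell in males. The medians were -0.16 in males, with 5 negative and 2 positive differences, and -0.01 in females. Afp, the foetal member of the albumin family, had 8.64, 9.33 and 9.73 in m-WS and 9.32, 10.72 and 11.97 in m-LF, and fell by 1.48 in males (SE 0.33, adjusted p = 0.0419). In f-WS it had 9.42, 10.22 and 10.70 and in f-LF 9.32, 10.51 and 11.25, a difference of -0.24 ± 0.30 (adjusted p = 0.771), and the sexes differed by -1.24 ± 0.45 (adjusted p = 0.406). The Afp ranges of males overlapped only between 9.32 and 9.73. The m-LF pup at 9.32 was m-LF6, a male with a raised Xist signal, and the other m-LF pups were at 10.57 or above. Of 11 C/EBP targets and 2 ONECUT1 targets tested, 0 passed p 0.01 in either sex.

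Some markers of other cells changed with maternal diet in males, beside the change of Nr5a2, where 2.79% of all genes rose and 2.34% fell. Of 4 B cell precursor markers tested, 3 rose in males (Igll1, Cd79a and Ebf1), and the mean log2 signal of the list was 6.89 to 7.62 in m-WS and 5.84 to 7.43 in m-LF. Of 7 neutrophil and myeloid markers, 2 rose (S100a9 and Ltf), with means of 6.23 to 6.98 in m-WS and 5.46 to 7.04 in m-LF. Of 7 liver endothelial markers 3 fell and 2 had positive differences, with means of 9.37 to 9.76 in m-WS and 9.50 to 9.87 in m-LF. Of 7 stellate cell markers 2 fell and 2 had positive differences, with means of 8.95 to 9.17 in m-WS and 8.98 to 9.29 in m-LF. These ranges all overlapped between the diets.

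Of 4 cholangiocyte markers tested, Sox9 rose in males and the other 3 had negative differences that did not pass p 0.01, at a median of -0.22 over the list. The mean of this list was 5.72 to 5.96 in m-WS and 5.43 to 6.70 in m-LF. Of 6 Kupffer cell and 5 erythroid markers, 0 passed p 0.01 in either sex. The Kupffer cell markers had 6 negative differences in males (median -0.07), and 4 positive and 2 negative ones in females. Of 6 pancreatic acinar markers, which matter because Nr5a2, Foxa2 and Onecut1 are also active in pancreas, 4 had a single-gene probe set. Of these, 1 was above the intensity filter and it did not pass p 0.01. In females 0 markers of B cells, myeloid cells, endothelium or stellate cells passed p 0.01. Among gut epithelial markers, a tissue that also uses Nr5a2 and Hnf4a, Krt20 rose in both sexes and Fabp2 in females, of 3 tested. Of all genes, 2.79% rose in males and 3.66% in females. In each sex 2 of the 3 gut markers had positive differences and 1 a negative one. Vil1, Cdx2 and Cdh17 were below the intensity filter. The mean of the gut list was 8.07 to 8.28 in m-WS and 7.56 to 7.99 in m-LF, without overlap. It did not overlap in females either, at 8.10 to 8.41 in f-WS and 7.58 to 7.91 in f-LF, where the difference of Nr5a2 was -0.00. How often a mean of 3 genes separates in this way was not determined. The part of these cell types in the Nr5a2 difference was not tested. The hepatocyte markers had means of 12.97 to 13.05 in m-WS and 12.96 to 13.02 in m-LF.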

How the data were processed

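Liver RNA of 27 pups was hybridised to Affymetrix arrays, 1 per pup. The authors computed the deposited values by RMA over all arrays, which background-corrects, quantile-normalises and summarises the probes, giving log2 signals between 1.51 and 13.58 for 35556 probe sets as the manufacturer defined them. The version is not given, and the redefinition to Entrez genes of the methods is not in this table. Signals of different probe sets cannot be set against each other, and quantile normalisation hides a shift shared by all genes. Genes were named from the platform annotation, with 21218 single-gene probe sets and symbols updated for 21185 of them.

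Genes reaching an intensity of 20 on 4 or more arrays (13279) entered 1 fit with limma (version 3.58.1, R 4.3.3) of the means of the 4 groups, with eBayes and an intensity trend, without the IQR filter of 0.1 that the methods also use (it would keep 10810 genes and all 9 factors). P-values were adjusted by Benjamini and Hochberg over all genes tested, and over the 36 pairs for correlations, which were permuted 100000 times within groups (NumPy 2.4.6). The fit was tested on simulated arrays with known changes. The number of arrays limits the precision.

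All 9 factors were named, and of the other lists the genes with p at most 0.01 in a sex or for the difference between the sexes, up to 4 per list and comparison by p. For each factor the 3 genes of highest r were named. The factors, lists and tests were chosen with earlier results of these data known. Alternatives were other filters, normalisations, prior variances, array weights and blocks, subsets by prefix, number and pup, and, chosen after seeing the data, the average of pups of the same sex and number. Promoters came from RefSeq (GRCm38.p6). Same-numbered replicates of the 2 diets were not paired, since their deviations correlated from -0.252 to 0.259.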

Additional observations from a re-analysis of the deposited data

Results flagged for a closer look

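For 7 genes, namely 1 of the 9 factors, 3 of the 34 other transcription factors and 3 of the 28 target genes, the change by maternal diet differed between males and females at p 0.01 in limma, as it did for 325 of all genes (2.45%), with 0 of all 13279 genes at an adjusted p under 0.05 for this comparison (1287 at p 0.05). Among the 9 factors this was Nr5a2, whose change in males minus that in females was 0.21 (adjusted p = 0.39), with every m-WS pup above every m-LF pup and the f-WS pups on both sides of the f-LF range. The p was above 0.01 without m-LF2, m-LF4, m-WS3, f-WS1 or f-WS2, with differences of 0.17 to 0.19, and at most 0.01 without each of the other 22 pups.

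Of the other transcription factors, Gata6 was at 0.38, Tef at 0.28 and Mlxipl at 0.18 in this comparison. Of the target genes, Abcg8 was at 0.51, Abcg5 at 0.49 and Mttp at -0.22. The adjusted p of these 6 genes was between 0.271 and 0.397.

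In 1 of 68 groups examined a pup stood apart from the rest of its group by a gap that takes up most of the group's range, where chance gives about 1 in 20. This was Apoa2 in m-LF1, at 12.77, with 12.88 to 12.93 in the other m-LF pups. None of the 36 groups of the 9 factors held such a pup.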

How the results depend on the processing

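Some alternatives cannot move the diet change of Nr5a2 in males (0.21), only its p. These leave out a female pup or number 39 (females only), or use another filter or prior variance. Over all 50 alternatives, with these counted, the change was positive (0.18 to 0.26), and it passed the threshold in use in 47. The exceptions were prefix 73 alone, pups of the same sex and number averaged, and the adjusted threshold, each with a count of 0 factors in males in place of 1. Without number 49 the count was 2, and without each pup in turn 1 to 2. The difference between the sexes in Nr5a2 was 0.13 to 0.34 and positive in all 49 alternatives, and it missed the threshold in 13, so that the count was 0 in place of 1 within prefix 73, without numbers 37, 39, 40 or 49, at the adjusted threshold and with pups averaged, and 0 to 1 without each pup in turn.

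In females the count was 1 in place of 0 with each sex fitted alone (Foxa1) and with the replicate block (Foxa3, -0.15), and 0 without each pup in turn. Between the sexes on LFD it was 1 in place of 0 with the replicate block and without number 39 or 48, and on WSD 0 to 1 without each pup in turn. The replicate number as a block moved the difference between the sexes in Nr5a2 to 0.20, above p 0.01, and left its change in males past p 0.01 (0.21), but the numbers do not pair the pups.

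For the other transcription factors, the count in males (1) was 2 with array weights or with the prefix as a block, 0 within prefix 73, without number 37 and at the adjusted threshold, 3 without number 49, and 1 to 2 without each pup. In females (1) it was 2 within either prefix and without number 39 or 48, 3 with the replicate block and without number 37 or 50, and 1 to 3 without each pup. For the target genes, the count in males (4) was 0 within prefix 74, 2 without number 48, 1 without number 49, with pups averaged and at the adjusted threshold, 8 without number 50, and 3 to 6 without each pup. In females (2) it was 1 with the IQR filter, without the intensity trend, with each sex alone and without number 39 or 40, 0 within prefix 73, with the number as a random block, without number 49, with pups averaged and at the adjusted threshold, and 0 to 3 without each pup. The correlated pairs (3) were 0 within prefix 73 and within sex and number, and 1 within prefix 74. The causes were not tested.

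Of 1096 alternatives for single factors, 78 turned the sign, all of values that did not pass p 0.01. The difference between the sexes in Onecut1 kept its sign and ran from -1.462 without number 48 to -0.0014 within prefix 74. In males, Hnf4a was 0.0444 within prefix 73, 0.0332 without number 37 and -0.0604 to 0.0115 without each pup in turn. Foxa1 was -0.019 with array weights, -0.0605 within prefix 73, -0.0257 without number 37, -0.1413 without number 48, -0.0537 without number 50, -0.0021 without m-LF6 and m-WS1, -0.0091 with pups averaged and -0.039 to 0.1032 without each pup in turn. Foxa2 was -0.0232 without number 37 and -0.0762 without number 48. Cebpb was 0.0794 without number 37, 0.0084 without number 49 and -0.1125 to 0.0988 without each pup in turn. Onecut1 was 0.4609 within prefix 74, 0.312 without number 40, 0.349 without number 49, -1.1339 without number 48 (the sign kept) and -0.4822 to 0.1102 without each pup in turn. Prox1 was 0.0037 with array weights, 0.0321 within prefix 73, 0.0608 without number 37, 0.0129 without number 40, 0.0113 without m-LF6 and m-WS1 and -0.0601 to 0.0435 without each pup in turn. In females, Hnf4a was -0.0205 with median centring, -0.0026 with repeated quantile normalisation, -0.0033 with array weights, -0.0205 within prefix 74, -0.0214 with the replicate block, -0.0475 without number 40, -0.0027 without number 48, -0.0113 without number 49, -0.024 without number 50 and -0.0328 to 0.0275 without each pup in turn. Foxa3 was 0.0728 within prefix 74 and 0.0241 without number 37. Cebpa was -0.051 without number 48. Cebpb was -0.0158 with median centring, -0.0196 with repeated quantile normalisation, -0.0272 with array weights, -0.0643 within prefix 74, -0.0083 without number 39, -0.0351 without number 40, -0.0007 without number 49, -0.0658 without number 50 and -0.049 to 0.0862 without each pup in turn. Nr5a2 was 0.0002 with array weights, 0.0447 within prefix 73, 0.0019 with the replicate block, 0.0764 without number 39, 0.0017 without number 49, 0.0006 without number 50 and -0.0371 to 0.0329 without each pup in turn.

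Other probe sets of a factor were not tried, since each has 1. With 6 to 9 pups a group, the intervals given set the precision of each difference. Each array number belongs to 1 maternal diet, and what else its pups share was not tested.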
